A study of Mus musculus with 4 samples.

Results

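The lysosomal hydrolases, lysosomal membrane proteins and subunits of the vacuolar proton pump (V-ATPase) were examined in antigen-activated mast cells with and without the phosphatase Pac1. Members were the probe sets whose only gene symbol in the platform annotation is on a list of 43 genes. The list was matched by 74 probe sets for 40 genes, out of 22626 probe sets that are not controls and 12393 genes with a symbol of their own on the array. Cd63, Atp6v0c and Arsb were not analysed here. The cells were mouse bone marrow-derived mast cells, from mice aged 8 to 12 weeks, kept with interleukin-3 (5 ng/ml) over 4 to 6 weeks; the labels give over 98% of cells as positive for Kit and FceRI. Wild-type (Pac1+/+) cultures were compared with Pac1-/- cultures, which lack Pac1, the product of Dusp2 and an inactivator of MAP kinases. All of them had been loaded with anti-dinitrophenyl IgE (100 ng/ml) for 18 h, and then given the antigen DNP-HSA at 20 ng/ml, which crosslinks IgE on its receptor, for 2 h, so that every value refers to activated cells. Each genotype had 2 cultures, numbered replicates 1 and 2 in both genotypes, with 1 Affymetrix 430A array per culture, and this small number limits how precise any value can be.

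Lysosomes degrade protein, glycan and lipid with hydrolases that work at acid pH, and the V-ATPase provides that acidity. Its membrane-bound V0 sector carries protons through a ring of proteolipids, its cytosolic V1 sector hydrolyses ATP, and accessory proteins guide its assembly and sorting. Mast cell secretory granules are related to lysosomes: they are acid, hold several of the same hydrolases beside the mast cell proteases, and carry lysosomal membrane proteins. Release of beta-hexosaminidase, whose alpha subunit is encoded by Hexa, is the usual laboratory measure of mast cell degranulation.

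Intensities are normalised linear values, and log2 values were taken after setting those below 16 to 16; values of different probe sets are not compared as amounts of transcript. Dusp2, the targeted gene, read 167 and 90.7 in wild-type replicates 1 and 2 and 109 and 75.5 in Pac1-/- replicates 1 and 2. These values overlapped (difference -0.44 ± 0.51, limma adjusted p = 0.888), so the Dusp2 signal did not tell the genotypes apart; no source used here says whether the probe set lies in the deleted part, and the genotypes are those of the labels. Of 12 mast cell marker genes, between 10 and 12 reached an intensity of 100 on an array. Macrophages are rich in lysosomes, and of 18 macrophage and monocyte markers 1 and 2 reached 100 in wild-type replicates 1 and 2, and 3 and 4 in the Pac1-/- replicates. Their summed intensity was 688 and 704 in wild-type and 867 and 1144 in Pac1-/- replicates 1 and 2; the complement genes C1qa and C1qc and the receptor gene Marco were below 16 on every array. The summed signal of these 18 markers was therefore higher on both Pac1-/- arrays. The direction depends on the markers listed. Cd68, also typical of macrophages but not among the 18, read 7512 and 118 in wild-type and 5638 and 121 in Pac1-/- replicates 1 and 2. Of the 2 markers bright enough to test, Lyz1 was higher without overlap (difference 2.18 ± 0.47; under 0.05 by limma's unadjusted test, adjusted p = 0.866) and Adgre1 lower without overlap (-0.18 ± 0.34, adjusted p = 0.939). The macrophage signal's part in the results was not tested. Of the neutrophil, basophil and eosinophil, dendritic, lymphocyte, erythroid and megakaryocyte, and stromal markers, at most 2 of a list reached 100 on any array, and no lymphocyte marker did. Some of their sums were still above the macrophage one. The erythroid and megakaryocyte sum was 2254 and 3404 in wild-type and 1949 and 680 in Pac1-/- cells. Its 1 tested marker was lower without overlap (-1.57). Dendritic sums were 2284 and 229 in wild-type and 1878 and 302 in Pac1-/- cells. Stromal sums were 1382 and 162 in wild-type and 533 and 285 in Pac1-/- cells. The part of these signals in the results was not tested. In a culture, fewer cells of a type and less RNA per cell cannot be told apart. One array stood apart: the deposited median intensity was 24.5 on Pac1-/- replicate 2, where the other arrays had 40.6 to 49.3, and its Gapdh 3' to 5' control ratio was 191 against values between 0.798 and 1.36 elsewhere. The actin ratio followed the arrays differently, at 109 and 293 for the replicate 1 arrays and 1.58 and 54.8 for the replicate 2 arrays, wild-type first.

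The members were among the brighter genes on every array. By its brightest probe set, a member had a median percentile between 90.5 and 92 on the 4 arrays, against 55.4 to 56.7 for all 12393 genes. In all, 17 of 40 members lay in the top 10% of probe sets on all 4 arrays, where 6.7% of all genes did. An intensity of 100 was reached on every array by 32 members, on some arrays by 5, and on none by 3.

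**Figure D1:**
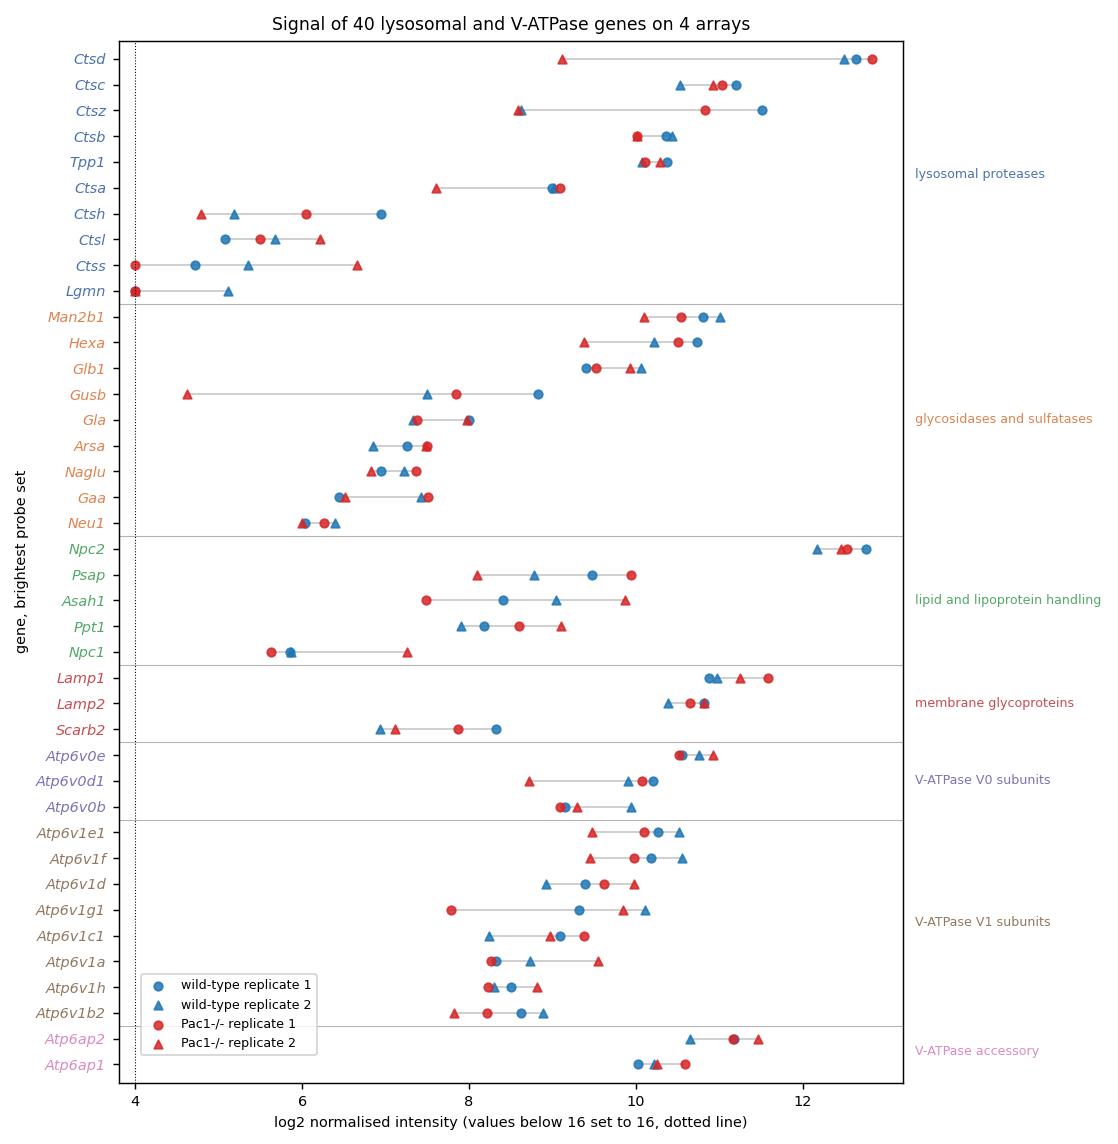
Log2 normalised intensity of the brightest probe set of each of 40 genes (rows, grouped by role) on the 4 arrays (blue, wild-type; red, Pac1-/-; circles, replicate 1; triangles, replicate 2); grey lines join the lowest and highest array. Gusb, Ctsd, Ctsz, Ctss, Asah1, Atp6v1g1 and Ctsh are each spread over more than 2 log2 units, and no other gene is.

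The comparison asked which transcripts differed between activated wild-type and Pac1-/- mast cells. Differences are log2 values, Pac1-/- minus wild-type, with the SE of the fit (n = 2 per genotype). No member passed limma's test: of 34 members bright enough to test by their brightest probe set, 0 had an adjusted p under 0.05 (background 0% of 4998 genes) and 0 an unadjusted p under 0.05 (background 2.92% of genes, and 3.38% of all 7770 tested probe sets). The lowest unadjusted p was 0.12, for Ppt1, and the adjusted p values ran from 0.866 to 0.998. The difference was positive in 16 and negative in 18 members, where 56.1% of all tested genes were positive and 43.9% negative. The median over members was -0.020, against 0.10 over all tested genes. Genotypes did not overlap in 10 members, 5 with higher and 5 with lower Pac1-/- values; the background was 37.6% of genes (26.1% higher and 11.5% lower), so the members' 29.4% was not above it. The sign depends on the scaling: with each array centred on its median, 29 of 34 members were positive (median 0.56), but the median of all tested probe sets was then 0.69, and 18 members lay below it. The median standard error of a member was 0.42 log2 units, and a p above the threshold is no evidence of equal levels.

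**Figure D2:**
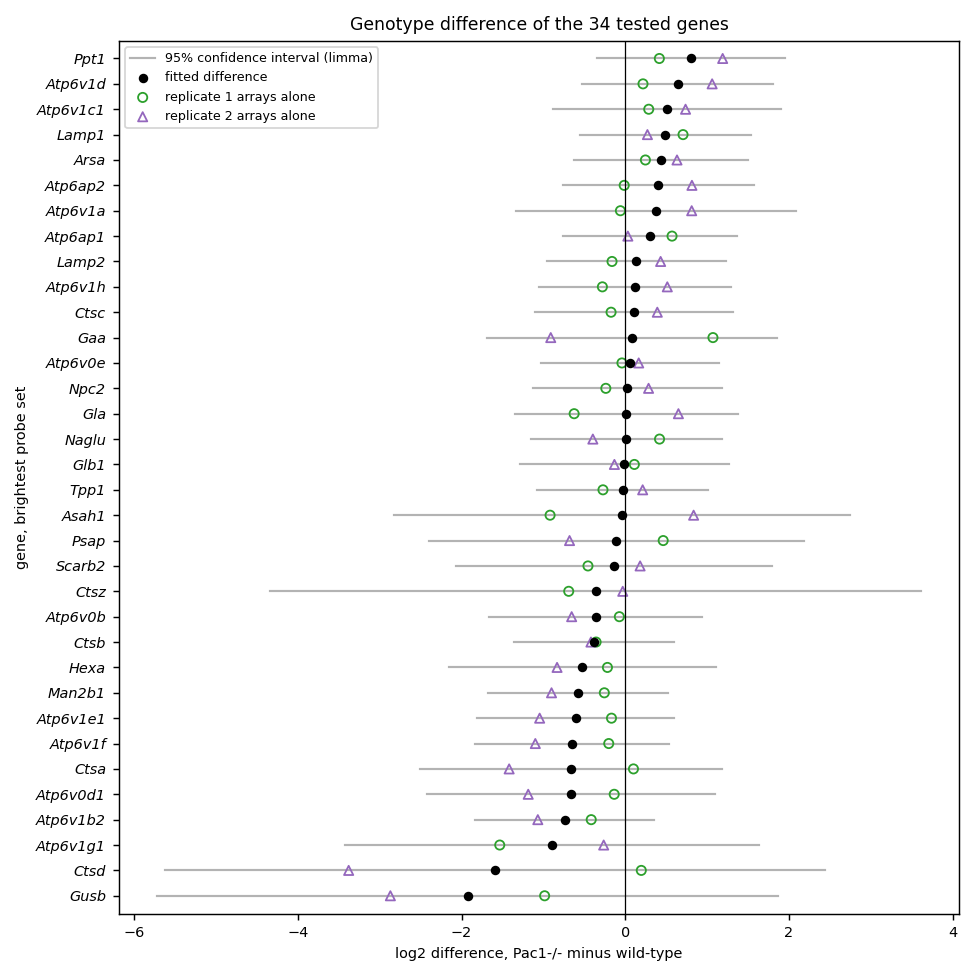
Fitted log2 difference, Pac1-/- minus wild-type (black points, with 95% confidence intervals from limma), for the 34 tested genes (rows), and the difference within the replicate 1 arrays (green circles) and within the replicate 2 arrays (purple triangles). All 34 intervals include 0, and Ctsd and Gusb are farthest to the left through the replicate 2 arrays.

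The replicate 1 and replicate 2 arrays gave the same sign in 17 of 34 members, against 59.8% of all tested genes. Between the replicate 1 arrays 22 members were lower in Pac1-/- cells, with a median difference of -0.15; between the replicate 2 arrays 17 were lower and 17 higher, with a median of 0.0011. The typical size was larger in the second pair: the median absolute difference was 0.26 for replicate 1 and 0.67 for replicate 2. All tested genes had 0.45 and 0.63. Of the members' sum of squares, the replicate number took 53.9%, genotype 25.2% and the rest 20.9%, against 75.2%, 15.3% and 9.55% over all tested genes. Squares were pooled over genes, so the shares are weighted to genes with large differences and do not describe a typical member. The largest genotype differences were those of Gusb (-1.93) and Ctsd (-1.59), and the largest replicate difference was that of Ctsz (-2.57). The replicate numbers did not overlap in 16 of 34 members (background 40.6%).

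Among the proteases, the aspartic protease cathepsin D (Ctsd) was the brightest. Its intensity was 6366 and 5769.9 in wild-type and 7295 and 555 in Pac1-/- cells, so that 3 arrays were alike and Pac1-/- replicate 2 was low. Its genotype difference was -1.59 ± 1.41 (limma adjusted p = 0.875), and it was 0.27 without that array. Ctsc, the dipeptidyl peptidase that activates granule proteases by trimming their amino terminus, read 2356 and 1483 in wild-type and 2089.7 and 1946 in Pac1-/- cells. Its values overlapped between the genotypes, and the difference was 0.11 ± 0.42. The cysteine protease gene Ctsb read 1320.5 and 1379 in wild-type and 1032 and 1031 in Pac1-/- cells. Both Pac1-/- values of Ctsb lay below both wild-type values, but the difference of -0.39 ± 0.34 did not pass limma's test (adjusted p = 0.875). The second tested Ctsb probe set, 1448732_at, was high on wild-type replicate 2 alone, with 21.8 and 748 in wild-type and 9.5 and 19.6 in Pac1-/- cells, a difference of -2.85 ± 1.91. Tpp1, a tripeptidyl peptidase, read 1328 and 1079 and then 1100.3 and 1251 for the same groups, a difference of -0.029 ± 0.36.

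The carboxypeptidase cathepsin Z (Ctsz) separated by replicate number, not by genotype. It read 2927 and 1814 in the replicate 1 pair of arrays, against 393 and 385 in the replicate 2 pair, wild-type first. Ctsa, the carboxypeptidase that protects beta-galactosidase and sialidase in the lysosome, read 510 and 521 in wild-type and 547 and 195 in Pac1-/- cells, again with Pac1-/- replicate 2 alone at the low end. The remaining cysteine proteases were dim. Ctsh read 123 and 36.2 in wild-type and 66.2 and 27.6 in Pac1-/- cells, with both replicate 2 values below both replicate 1 values. Ctsl read 33.8 and 51.1 in wild-type and 44.9 and 74.2 in Pac1-/- cells, Ctss 26.2 and 40.8 in wild-type and 12.8 and 101 in Pac1-/- cells, and the asparaginyl endopeptidase gene Lgmn 14 and 34.4 in wild-type and 13.7 and 13 in Pac1-/- cells. These 4 genes had mean intensities below 100 and were left out of the test.

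Of the glycosidases and sulfatases, the alpha-mannosidase gene Man2b1 was the brightest, with 1783 and 2052 in wild-type and 1494 and 1099.6 in Pac1-/- cells. Its genotypes did not overlap, and the difference was -0.58 ± 0.38 (95% confidence interval -1.68 to 0.52; limma adjusted p = 0.866). Hexa read 1695 and 1186 in wild-type and 1458 and 666 in Pac1-/- cells. The Hexa values overlapped, with Pac1-/- replicate 2 lowest, and the difference was -0.52 ± 0.57, or 0.040 without that array. The beta-galactosidase gene Glb1 read 678 and 733 in the replicate 1 pair, against 1072 and 978 in the replicate 2 pair (difference -0.010 ± 0.44, interval -1.29 to 1.27). Gusb, which encodes beta-glucuronidase, had the most negative difference among brightest probe sets, -1.93 ± 1.32, with 454 and 180.1 in wild-type and 229 and 24.6 in Pac1-/- cells. That size rests on Pac1-/- replicate 2, which read 14.2 as deposited, and limma's adjusted p was 0.866.

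The other members of this class were dimmer. The arylsulfatase A gene Arsa read 153 and 116 in wild-type and 181 and 179 in Pac1-/- cells, groups that did not overlap, with a difference of 0.44 ± 0.37. Gla (alpha-galactosidase A) and Naglu (alpha-N-acetylglucosaminidase) had differences of 0.013 ± 0.48 and 0.012 ± 0.41. For both, the difference had opposite signs in the replicate 1 and replicate 2 arrays, -0.62 and 0.65 for Gla and 0.42 and -0.40 for Naglu. The acid alpha-glucosidase gene Gaa was the dimmest member that passed the intensity minimum, with a mean of 133, and the sialidase gene Neu1, with 72.5, did not pass it.

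Npc2, the soluble protein that carries cholesterol to Npc1 in the lysosomal membrane, was the brightest member of all. It read 6949.9 and 4626 in wild-type and 5898 and 5638 in Pac1-/- cells, at or above the 99.4 percentile on every array. Its genotype values overlapped, with a difference of 0.024 ± 0.40 (interval -1.13 to 1.18). Npc1 itself was dim, at 58.1 and 58.2 in wild-type and 49.4 and 153 in Pac1-/- cells, just under the intensity minimum with a mean of 79.7. Psap, the precursor of the saposins that help lipid hydrolases, read 712 and 438 in wild-type and 982 and 273 in Pac1-/- cells. The acid ceramidase gene Asah1 read 338 and 526 in wild-type and 179 and 939 in Pac1-/- cells, so the highest and the lowest of its 4 values were both from Pac1-/- cultures. Ppt1, which removes palmitate from proteins, had the most positive difference among brightest probe sets, 0.80 ± 0.40 (interval -0.34 to 1.95; limma adjusted p = 0.866). It read 289.9 and 240.1 in wild-type and 387 and 548 in Pac1-/- cells, without overlap.

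Lamp1 and Lamp2, the glycoproteins that line the inner face of the lysosomal membrane, were bright on all arrays. Lamp1 read 1884 and 2017 in wild-type and 3075 and 2434 in Pac1-/- cells. The 2 genotypes of Lamp1 did not overlap, but the difference of 0.49 ± 0.36 (interval -0.55 to 1.53) did not pass limma's test (adjusted p = 0.866). Lamp2 read 1798 and 1332 in wild-type and 1608 and 1798 in Pac1-/- cells, and its highest values, on wild-type replicate 1 and Pac1-/- replicate 2, were equal. Scarb2, the membrane receptor that delivers glucocerebrosidase to lysosomes, read 321 and 234 in the replicate 1 pair, against 122 and 139 in the replicate 2 pair, higher in the first pair.

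All 8 V1, 3 V0 and 2 accessory genes of the proton pump reached 100 on every array. In the V0 sector, Atp6v0e read 1501 and 1729.5 in wild-type and 1460.5 and 1939 in Pac1-/- cells, a difference of 0.063 ± 0.38 (interval -1.02 to 1.15). The gene of the subunit d that joins the proteolipid ring to the stalk, Atp6v0d1, read 1184 and 957 in wild-type and 1078 and 421 in Pac1-/- cells, with Pac1-/- replicate 2 lowest. The proteolipid gene Atp6v0b was highest on wild-type replicate 2 (984) and between 543 and 625 on the others. The accessory gene Atp6ap2, which encodes the prorenin receptor, read 2320.2 and 1608 in wild-type and 2301 and 2829.7 in Pac1-/- cells. Atp6ap1, the other accessory gene, read 1039.6 and 1194 in wild-type and 1546 and 1221 in Pac1-/- cells. Both had positive differences, 0.40 ± 0.41 and 0.30 ± 0.37, and only the Atp6ap1 genotypes did not overlap.

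In the V1 sector, subunits of the same complex had differences of both signs. Genotypes did not overlap in 4 of 8 V1 genes (50%), where the background was 37.6% of genes (11.5% lower and 26.1% higher). A group of 3 had Pac1-/- values wholly below the wild-type ones: the nucleotide-binding subunit gene Atp6v1b2 (396 and 473 in wild-type, 297 and 226 in Pac1-/-), the peripheral stalk gene Atp6v1e1 (1229 and 1462 in wild-type and 1094 and 708 in Pac1-/- cells) and the central stalk gene Atp6v1f (1158 and 1499 in wild-type and 1008 and 700.3 in Pac1-/- cells). Their differences were -0.74 ± 0.38, -0.61 ± 0.42 and -0.65 ± 0.41, with limma adjusted p = 0.866 for each. The other central stalk gene, Atp6v1d, read 673 and 485 in wild-type and 783 and 1012 in Pac1-/- cells, wholly above, with a difference of 0.64 ± 0.41. Atp6v1a, which encodes the catalytic subunit, read 321 and 424 in wild-type and 308 and 745 in Pac1-/- cells, and the regulatory subunit gene Atp6v1h 363 and 315 in wild-type and 299 and 449.9 in Pac1-/- cells; each overlapped between genotypes. The peripheral stalk genes Atp6v1c1 (543 and 301 in wild-type and 663 and 502 in Pac1-/- cells) and Atp6v1g1 (637 and 1108 in wild-type and 220 and 923 in Pac1-/- cells) had replicate 2 values wholly below and wholly above the replicate 1 values respectively.

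A short promoter sequence was shared by 14 members. Transcription factors of the MiT family, which includes the mast cell factor Mitf and Tfeb, bind E-boxes with the letters CACGTG, and lysosomal genes are known targets. RefSeq promoter windows (GRCm38.p6; 250 bases before to 50 after the transcript start) were matched for 35 of 43 members. The letters CACGTG, which read the same on both strands, were in the windows of 14 of these genes (40%), in 8.09% of all 27025 genes and in 13.1% of 4131 genes with a tested probe set. With a T in front (TCACGTG on either strand, a subset of the former) the counts were 13 of 35 members (37.1%), 4.29% of all genes and 7.79% of tested ones. These matches describe the sequence and show neither binding nor regulation.

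By role, CACGTG was in 3 of 4 V0 genes, 1 of 4 V1 genes and 4 of 8 proteases. It was in 5 of 10 glycosidases and sulfatases and 1 of 4 membrane glycoproteins. None of the 3 lipid handling and 2 accessory genes with a window held it. Lamp1 had 4 copies, a number reached by 21 genes of the whole table. Stretches are shown for Lamp1, which had the most copies, for the 4 pump genes with the motif that were on the array, for Ctsd, the brightest protease, for Gla, with 2 copies, and for Glb1 and Ctsa, whose products form a complex; CACGTG is in capitals, and 1 of the 2 copies of Ctsd and of Ctsa is shown.
Lamp1: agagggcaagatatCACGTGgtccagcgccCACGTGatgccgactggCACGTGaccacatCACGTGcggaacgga
Atp6v0b: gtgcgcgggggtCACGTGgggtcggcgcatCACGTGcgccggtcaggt
Gla: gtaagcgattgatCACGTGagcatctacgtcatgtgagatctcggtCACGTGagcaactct
Ctsd: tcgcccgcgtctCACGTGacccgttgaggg
Glb1: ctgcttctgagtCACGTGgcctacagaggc
Ctsa: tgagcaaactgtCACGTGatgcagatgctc
Atp6v0d1: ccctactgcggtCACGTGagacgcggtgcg
Atp6v0e: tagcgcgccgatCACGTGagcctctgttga
Atp6v1a: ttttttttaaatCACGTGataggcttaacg
They lie at chr8:13159086-13159160 (plus strand, bases -75 to -1 from the start), chr4:117887330-117887377 (minus, -48 to -1), chrX:134601185-134601245 (minus, -240 to -180), chr7:142387908-142387937 (minus, -110 to -81), chr9:114401018-114401047 (plus, -60 to -31), chr2:164833749-164833778 (plus, -24 to 6), chr8:105566050-105566079 (minus, -15 to 15), chr17:26676387-26676416 (plus, -9 to 21) and chr16:44139373-44139402 (minus, -143 to -114).

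Of 21 matches in member windows 13 began within 100 bases before the start (61.9%), against 46.5% of all matches in the table. The latter were counted in each window, also where windows of a gene overlap. On the arrays, the 12 tested members with the motif had 7 positive and 5 negative genotype differences (median 0.013), and the 16 without it 7 and 9 (median -0.069). The median of mean intensities was 446 over the 14 members on the array with the motif and 1156 over the 18 without it. Bright and dim members were found on both sides. Lamp1, Ctsd and Atp6v0e had the motif and Npc2, Ctsc and Lamp2 did not, while Lgmn and Ctsl had it and read below 100 on all arrays.

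**Figure D3:**
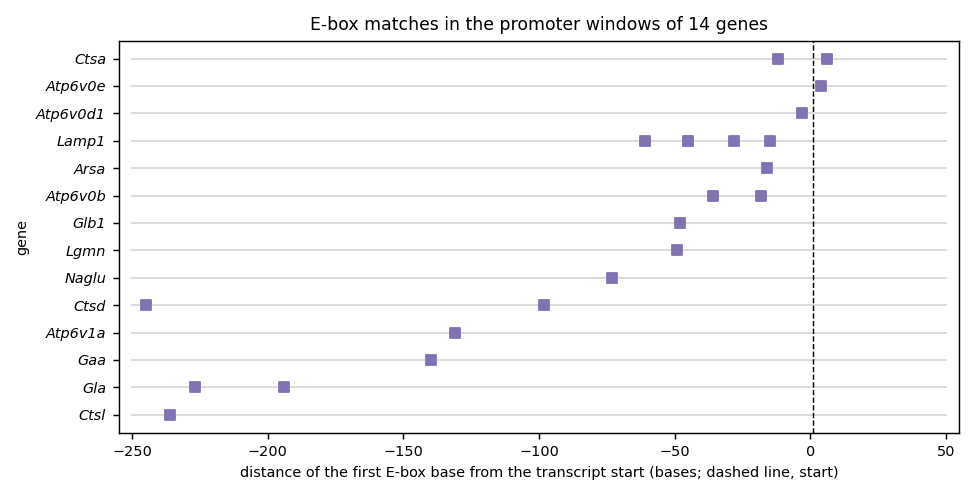
Distance in bases of each CACGTG match from the transcript start (dashed line) in the promoter windows (grey lines) of the 14 members that hold one. The 4 matches of Lamp1 begin between -61 and -15.

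Probe sets of one gene often gave different answers. In 15 members at least 2 probe sets were tested, and in 8 of these the genotype difference had both signs. For the brightest and the next brightest probe set the sign was the same in 9 of 15 members (60%), and in 50.8% of 1468 genes with 2 such probe sets. The difference between the replicate numbers, averaged over the genotypes, had the same sign in 5 of 15 members and in 54.8% of genes. The median gap between the 2 probe sets in that difference was 1.40 log2 units for members and 0.81 for all genes.

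The widest gap was in Npc2. Its brightest probe set (1448513_a_at) stayed between 4626 and 6949.9, while 1416901_at read 77.3 and 50.7 in the replicate 1 pair, against 3133 and 1951 in the replicate 2 pair, wild-type first. The mean replicate difference was -0.33 by the first and 5.30 log2 units by the second. For Atp6ap2, 2 of its probe sets differed by -0.12 and 0.044 between the replicate numbers, and the third, 1423662_at, read 63.1 and 51.4 and then 1107 and 1201. For Ctsz and Gusb the probe sets pointed in opposite directions. The Ctsz probe set 1417868_a_at read 71.1 and 58.1 on the replicate 1 and 362 and 432 on the replicate 2 arrays, higher in the second pair, where the brightest one was lower. The second Gusb probe set, 1448124_at, read 64.1 and 33.2 and then 256 and 341, also higher in the second pair, where the brightest one was lower.

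Lamp2, whose transcripts differ in their last exon, had 4 tested probe sets, and all 4 genotype differences were positive, between 0.14 and 1.30. None passed limma's test. One of them, 1416343_a_at, read 1879 and 1002 on the replicate 1 and 63.7 and 286 on the replicate 2 arrays, lower in the second pair. The 3 tested probe sets of Atp6v1d were also all positive (0.64, 0.028 and 1.67 ± 0.61 for 1438993_a_at), and the 3 of Atp6v0b all negative (-0.36, -1.42 and -0.29). Of the 56 tested member probe sets 0 passed limma's unadjusted test (background 3.38% of all 7770 tested probe sets). Ppt1, with the lowest p among brightest probe sets, was positive by that one and -0.33 ± 0.98 by the other. The subunit genes Atp6v1g1 and Atp6v1c1 had differences of -0.90 and 0.51 by their brightest probe sets and 0.53 and -0.45 by the next. Tpp1 differed by -0.029 and 0.95.

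**Figure D4:**
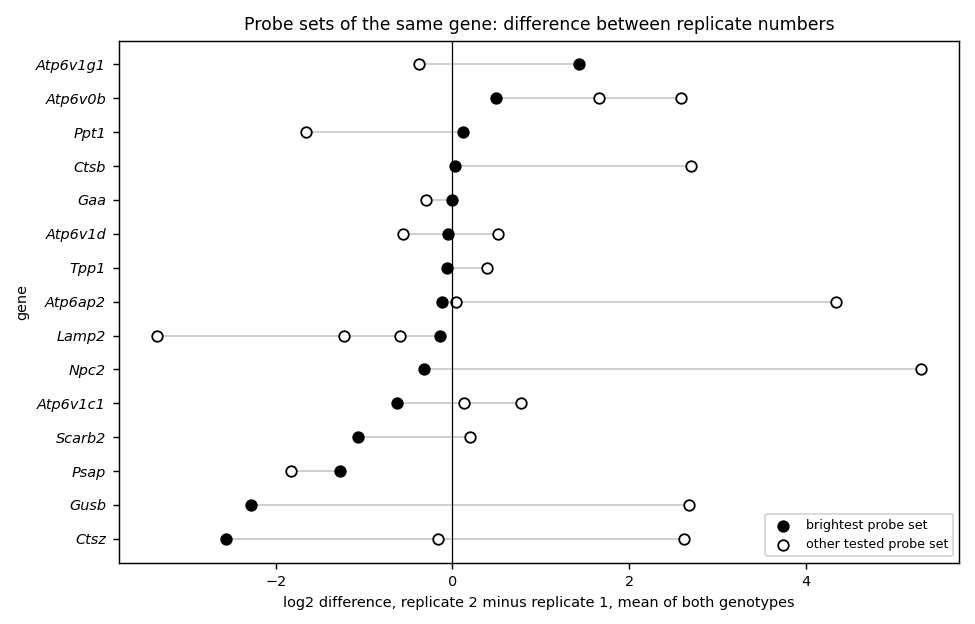
Log2 difference between replicate 2 and replicate 1, averaged over both genotypes, for every tested probe set (points) of the 15 genes with at least 2; filled points mark the brightest probe set of a gene (rows). The probe sets of Npc2, Ctsz, Gusb and Atp6ap2 lie more than 4 log2 units apart.

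Other genes of the lysosome and its sorting pathway were read from 4 further lists. By brightest probe set, none of their genes passed limma's adjusted or unadjusted test. Over all their 85 tested probe sets 1 passed the unadjusted test and 0 the adjusted one (background 3.38% and 0% of all 7770 tested probe sets). It was the dimmer of the pair for Flcn, a regulator of lysosomal nutrient signalling named here after its value was seen (1438167_x_at, difference 1.35 ± 0.37, limma adjusted p = 0.866), and the brighter one differed by 0.089 ± 0.68. Of 15 tested hydrolases and activators, 9 were positive and 6 negative, with a median of 0.27. Among them the cathepsin E gene Ctse read 156 and 174 in wild-type and 415 and 284 in Pac1-/- cells (difference 1.06 ± 0.40), the acid lipase gene Lipa 93.2 and 137 in wild-type and 157 and 254 in Pac1-/- cells, and the ganglioside activator gene Gm2a 3269 and 3764 in wild-type and 2945 and 1736 in Pac1-/- cells (-0.63 ± 0.45). A second tested Ctse probe set, 1427797_s_at, gave the opposite sign, with 371 and 274 in wild-type and 292 and 1.35 in Pac1-/- cells (-2.22 ± 1.58), and the second of Gm2a, 1416188_at, was high on wild-type replicate 2 alone (-2.60 ± 1.44). Man2b2, a further alpha-mannosidase gene, was high on wild-type replicate 1 alone (735; the other arrays were between 51.7 and 90.2). Of 13 lysosomal membrane proteins, 5 were positive and 8 negative (median -0.17). Tmbim1 read 525 and 543 in wild-type and 1000.2 and 972 in Pac1-/- cells, a difference of 0.89 ± 0.34 with close replicates. Hgsnat, the heparan sulphate acetyltransferase, was at 0.79 ± 0.58, Tmem9 at -0.73 ± 0.41 and the transporter gene Spns1 at -2.09 ± 1.02, the last with Pac1-/- replicate 2 at the floor.

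Of the other V-ATPase subunits and assembly factors 5 were tested, 2 positive and 3 negative. Tcirg1, which encodes a V0 subunit a, read 398 and 318 in wild-type and 270.2 and 126 in Pac1-/- cells (-0.94 ± 0.54). Atp6v0a1, another subunit a gene, was high on wild-type replicate 1 alone, at 512 against 51.2, 53.4 and 77.1. Oxr1 and Ccdc115, the latter an assembly factor, were at 0.58 ± 0.64 and 0.17 ± 0.44, and a second Oxr1 probe set at -0.087 ± 0.57. Of 33 sorting and biogenesis genes 20 were positive and 13 negative (median 0.10). Lyst, whose loss enlarges lysosomes and mast cell granules, read 59.3 and 93 in wild-type and 154 and 165 in Pac1-/- cells (1.10 ± 0.42). The clathrin adaptor genes Gga2 and Ap1s1 differed by 0.69 ± 0.36 and -1.22 ± 0.54, and Dtnbp1, of the complex that forms lysosome-related organelles, by -0.96 ± 0.54. Genotypes did not overlap in 6 of 15 hydrolases and activators (40%), 7 of 13 membrane proteins (53.8%), 1 of 5 V-ATPase genes (20%) and 14 of 33 sorting and biogenesis genes (42.4%), where the background was 37.6%.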

How the data were processed

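Total RNA of the 4 cultures was amplified, labelled and hybridised to 1 array each. The deposited values are linear intensities, for which the submitters' processing notes name MAS5; RMA values, which the series' design text describes, were not used here. After leaving out 64 control probe sets, the 4 arrays were quantile normalised and a floor of 16 was set before log2; differences of dim genes depend on that floor. Probe sets with a mean of at least 100 were fitted with limma 3.58.1 (lmFit, eBayes; genotype only; two-sided; Benjamini-Hochberg over all 7770) in R 4.3.3; residual degrees of freedom were 2, prior 1.71. The steps were tested on simulated data with known changes. The check that had to be passed used a spread far below the measured one. It therefore does not show what the test can detect at the measured spread. A gene was read from its brightest probe set. No permutation test is given, since 2 against 2 arrays cannot reach 0.05. The design text calls the cultures independent.

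Values on every array are given for the 12 brightest members, the members with the lowest p among those without overlap (up to 6 per direction), the brightest of each role and those whose probe sets disagree (up to 6); other members named with values were chosen after these were seen, as were the promoter stretches and the genes with values under the other observations. Of the other lists, up to 2 genes per direction with the lowest p were named. Members and lists were chosen with earlier results of these data known; the promoter motif search was added after the array values had been seen. Promoter sequences are from RefSeq. Alternatives were the values as deposited, median centring, no intensity minimum or 200, a floor of 64, an intensity trend, each array left out, a replicate block, and averaging the probe sets of a gene. Figures were drawn with matplotlib 3.10.9.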

Additional observations from a re-analysis of the deposited data

How the results depend on the processing

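No alternative gave an adjusted limma p under 0.05, for a member or for any other probe set. At an unadjusted p under 0.05, 1 member passed with no intensity minimum (Ctsb; 2.5% of members, 8.14% of all genes), 1 with the probe sets averaged (Gusb; 2.94% and 2.94%) and 0 to 2 with an array left out; the 2, Ctsd and Gusb, were without Pac1-/- replicate 1 (5.88% of members, 3.82% of all genes), where Ctsd was at -3.45. Leaving out an array sets 1 culture, assumed to vary like the others, against the 2 of the other genotype; the members without overlap were then 21 to 23 (61.8% to 67.6%; 64.1% to 76.4% of all genes), the count positive 15 to 19 and the median -0.20 to 0.048. With a replicate block (no label states what the numbers share), 1 member (Gusb) had an unadjusted p under 0.05 (2.94% of members, 8.36% of all genes), and 0 passed the adjusted test; the deviations of same-numbered arrays correlated at 0.751 over probe sets, but 2 pairs do not settle the pairing.

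Median centring gave 29 positive members and a median of 0.56, and turned the sign of Man2b1 (0.23), Ctsz (0.30), Hexa (0.25), Ctsb (0.39), Atp6v1f (0.10), Atp6v1e1 (0.15) and Tpp1 (0.77); on that scale all tested probe sets shifted up too. Tpp1 was at 0.14 on the values as deposited, and Tpp1 and Npc2 were at 0.46 and -0.31 with probe sets averaged. Averaging also moved Ctsb to -1.62, Lamp2 to 0.62, Ppt1 to 0.24, Atp6v1g1 to -0.18, Ctsz to -0.0076, Atp6ap2 to 0.18 and Atp6v1c1 to 0.27. With an array left out, the difference ran from -0.27 to 0.32 for Npc2, -3.45 to 0.27 for Ctsd, -0.22 to 0.44 for Ctsc, -0.14 to 0.27 for Atp6v0e, -0.081 to 0.35 for Lamp2, -1.81 to 1.09 for Ctsz, -1.09 to 0.040 for Hexa, -1.93 to 0.14 for Atp6v1g1 and -0.18 to 0.12 for Tpp1. In the same fits, sizes moved by over 1.5 times with no change of sign for Atp6v1c1 (0.087 to 0.94), Atp6ap2 (0.14 to 0.67), Atp6v1e1 (-0.92 to -0.29), Atp6ap1 (0.13 to 0.47), Arsa (0.24 to 0.64), Atp6v1d (0.40 to 0.88), Lamp1 (0.32 to 0.66), Man2b1 (-0.80 to -0.36) and Atp6v1f (-0.91 to -0.39). On the values as deposited the largest move of a member named by rule was 0.201. Other minimums, the floor of 64, the trend and the block leave these estimates as they are, so their signs could not turn; of 136 estimates that an alternative did change, 23 turned. Signal near background limits Gusb, Gaa and the 6 untested members.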

Other observations

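The macrosialin gene Cd68, a lysosomal membrane glycoprotein typical of macrophages, was bright on both replicate 1 arrays and dim on both replicate 2 arrays. Its brightest probe set read 7512 and 5638 in the replicate 1 pair (wild-type first), against 118 and 121 in the replicate 2 pair. The macrophage receptor gene Csf1r, which was dim, read 54.3 and 44.7 in the first pair, against 102 and 57.5 in the second. Other markers differed in direction between replicate 2 and replicate 1. The 2 tested macrophage markers had a median of 0.23 log2 units and the 2 tested stromal markers -3.97. The 1 tested dendritic marker was at -5.20. What lies behind the Cd68 values was not tested. Vamp8, a SNARE of lysosomes and secretory granules, read 90.5 and 31.6 in the first pair, against 1120.3 and 562 in the second. This order was opposite to that of Cd68. The mannose 6-phosphate receptor gene M6pr, which sorts hydrolases to lysosomes, read 2373 and 2013 in wild-type and 1601 and 2239 in Pac1-/- cells. A second tested M6pr probe set, 1416386_a_at, read 147 and 16.4 in the first pair, against 1261 and 221 in the second (genotype difference -2.84 ± 1.82). Rab38, which encodes a GTPase of lysosome-related organelles, read 3419 and 2929 in wild-type and 3293 and 3306 in Pac1-/- cells, close on all 4 arrays.

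Among the MiT factors, Mitf read 522 and 771 in wild-type and 1221 and 851 in Pac1-/- cells (difference 0.68 ± 0.44; limma adjusted p = 0.866), while Tfeb read between 10.4 and 97 and Tfec was below 16 on all arrays. CACGTG was in the promoter windows of 14 of 44 sorting and biogenesis genes, 5 of 32 further hydrolases and activators, 5 of 26 further membrane proteins and 2 of 14 further V-ATPase and assembly genes.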
